A study of Homo sapiens with 6 samples.

Results

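The genes examined here are the TRIM family of ubiquitin ligases in HMEC-1 cells, human endothelium of small vessels immortalised with a viral oncoprotein. Members were taken as probe sets annotated to exactly 1 gene symbol that begins with TRIM and a number. This gave 160 of 49395 probe sets, which stand for 60 of 18132 genes. The cells were kept in serum-free medium. For 24 hours 3 samples received EPC-Exos at 1e+11 particles per mL, and 3 samples received an equal volume of PBS. The labels leave EPC-Exos unexplained; the work is known to be on exosomes of endothelial progenitor cells. The study asked how these vesicles change gene expression in endothelium. Total RNA was measured on Affymetrix arrays, so RNA brought in by the vesicles and RNA made by the cells cannot be told apart. With 1 cell line, and without a label that names separate cultures, p-values reflect only how far these samples spread, and that spread may be technical.

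TRIM proteins share an N-terminal arrangement of a RING finger, one or more B-box zinc fingers and a coiled coil. The RING finger makes most of them E3 ubiquitin ligases, while the C-terminal domain, often a PRY-SPRY domain, selects the target. Part of the family is induced by interferons and acts in antiviral defence, by binding viral components or by ubiquitinating sensors of viral RNA and their adaptors. Other members control transcription, muscle protein turnover or neuronal proteins. A few carry the B-box and coiled coil without a RING finger.

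Log2 array medians lay between 6.25 and 6.34, and arrays of one group correlated at 0.997. As a guide to background, the 17 Tag controls, whose sequences are absent from human transcripts, reached a mean log2 signal of at most 4.97. Of 14 endothelial markers, 9 lay above that level in both groups, and CDH5, TEK, EMCN, CLDN5 and MMRN1 lay at or below it in both. The summed linear signal of the 14 was 3069 to 3134 with EPC-Exos and 2254 to 2600 with PBS. Of 8 tested, ENG, TIE1 and ESAM rose (37.5%, against 21.7% of all genes tested) and 0 fell (against 27.3%). The largest rise was in ENG, whose mean log2 signal was 9.96 with EPC-Exos and 9.16 with PBS. Of 9 leukocyte and platelet markers, 6 lay at or below it in both groups. Their summed linear signal was 566 to 626 with EPC-Exos and 431 to 446 with PBS. Only 2 of the 9 were tested, and the only called member was CD68, which was higher. CD68 was also the brightest of the 9, with a mean log2 signal of 8.47 with EPC-Exos and 7.73 with PBS. Of 7 fibroblast and mural cell markers, 1 lay at or below background in both groups. Their summed linear signal was 294 to 334 with EPC-Exos and 747 to 834 with PBS. Of 4 tested, DCN, ACTA2 and PDGFRB fell (75%, against 27.3% of all genes tested). LUM, below the signal filter, fell in the fit without it (-2.30, adjusted p = 6.78e-12). Whether these marker shifts have a part in the changes below was not tested. In bulk RNA, fewer cells of a type and less RNA per cell cannot be told apart.

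Each gene was represented by its brightest probe set and tested where the mean log2 signal was at least 5.45, which 38 of the 60 TRIM genes reached. Groups were compared with limma across all 11715 genes past that filter, and genes under 0.05 after Benjamini-Hochberg adjustment were called. Among the 38 tested TRIM genes, 15 were called (39.5%), against 49.1% of all genes tested. Of these, 6 were higher with EPC-Exos (15.8%, against 21.7% of all genes) and 9 were lower (23.7%, against 27.3%). Changes were modest, with a median absolute log2 change of 0.14 over the family and 0.18 over all genes. With sign, the median log2 change was -0.023 over the family and -0.011 over all genes. A called change of at least 1.2-fold was seen in 10 of the 38 TRIM genes (4 higher, 6 lower), against 4083 of all 11715 genes (34.9%). A called change of at least 1.5-fold was seen in 3 TRIM genes, or 7.89%, against 9.89% of all genes. These were TRIM14, which rose, and TRIM2 and TRIM4, which fell. The groups did not overlap in 20 TRIM genes (52.6%, against 55.7%). All 23 members that were not called had a 95% interval within a 1.5-fold change either way.

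**Figure D1:**
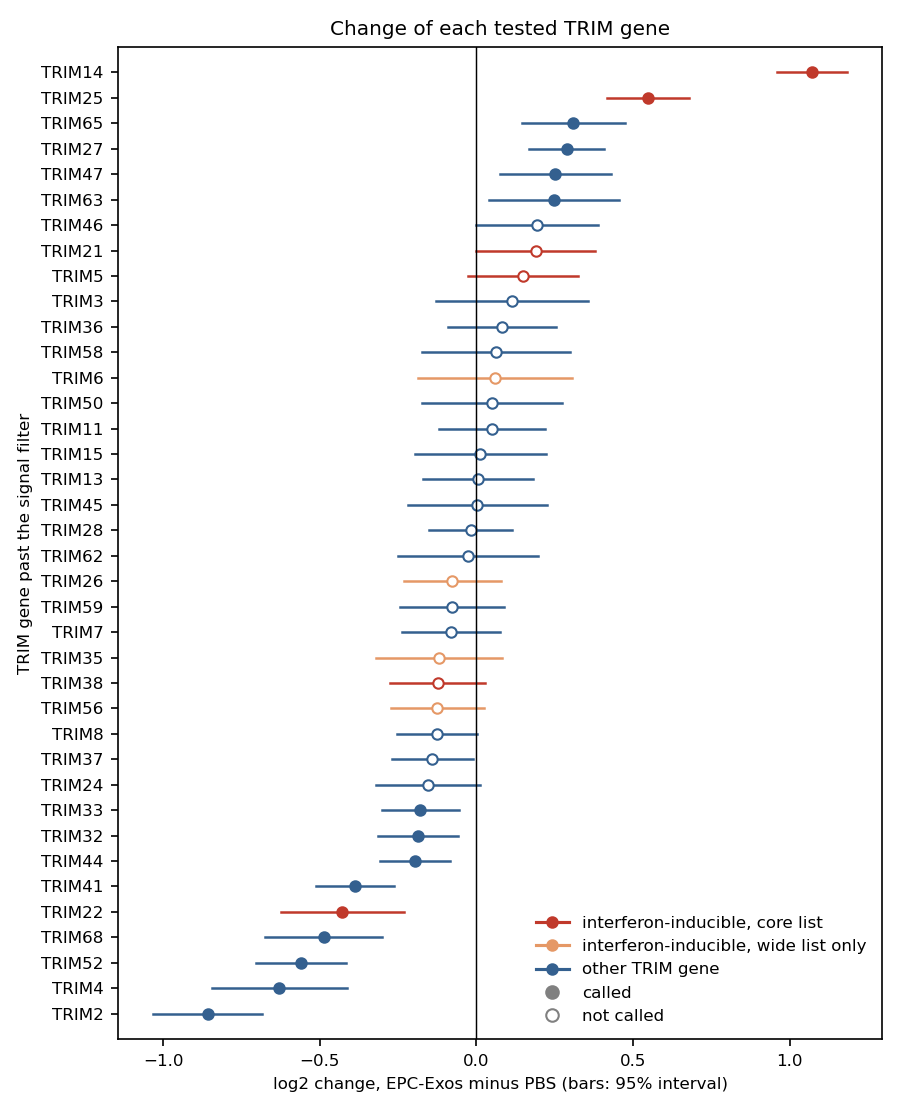
Log2 change of each of the 38 tested TRIM genes, EPC-Exos minus PBS, on the horizontal axis, with limma's 95% interval as bars; filled points passed the test and colours mark the interferon-inducible lists. TRIM14 stands highest at 1.07 and TRIM2 lowest at -0.86, and the interferon-inducible genes lie on both sides of 0.

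The interferon-inducible members moved in different directions. A core list of 8 genes known to respond to interferon (TRIM5, TRIM14, TRIM21, TRIM22, TRIM25, TRIM34, TRIM38 and TRIM69) had 6 tested members. TRIM14 and TRIM25 rose, TRIM22 fell, and TRIM5, TRIM21 and TRIM38 did not pass. The core list had a median log2 change of 0.17, against -0.052 for the 32 other tested TRIM genes. In the core list 33.3% rose and 16.7% fell, against 21.7% and 27.3% of all genes tested. Of the 32 others, 4 rose (12.5%) and 8 fell (25%), so their falls lay near the share of all genes. The core median changed sign to -0.12 when probe sets ending in _x_at and _s_at, which can bind related transcripts, were left out. That step removed TRIM14, TRIM5 and TRIM21 from the tested genes. Adding TRIM6, TRIM26, TRIM35 and TRIM56, whose induction by interferon is less general, gave 10 tested genes with the same 3 calls and a median of -0.0089. The called share was then 30%, against 49.1% of all genes.

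TRIM14, a family member without a RING finger that works as an adaptor of the antiviral protein MAVS on mitochondria, had log2 signals of 10.80, 10.85 and 10.95 with EPC-Exos and of 9.78, 9.81 and 9.80 with PBS. The EPC-Exos arrays all lay above the PBS arrays. This was a 2.10-fold rise (log2 change 1.07 ± 0.053, SE; limma adjusted p = 7.69e-11). Its other probe sets of adequate signal also rose, by 1.03 ± 0.076 and 0.96 ± 0.14 on the log2 scale. All 3 are of the kind that can bind related transcripts. The only TRIM14 probe set not of that kind had 4.60 ± 0.082 with EPC-Exos and 4.74 ± 0.075 with PBS (SD, n = 3), below the Tag control level.

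TRIM25, the ligase that attaches ubiquitin chains to the viral RNA sensor RIG-I, had log2 signals of 9.65, 9.57 and 9.71 with EPC-Exos and of 9.06, 9.16 and 9.06 with PBS. The groups did not overlap, and the rise was 1.46-fold (0.55 ± 0.062, limma adjusted p = 1.66e-06). Its second probe set rose by nearly the same amount, 0.57 ± 0.12.

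TRIM22, a nuclear antiviral ligase whose gene is also a p53 target, had log2 signals of 6.57, 6.81 and 6.64 with EPC-Exos and of 7.12, 7.18 and 7.01 with PBS. Every EPC-Exos array lay below every PBS array. The fall was 1.35-fold (-0.43 ± 0.092, limma adjusted p = 0.001). All 6 TRIM22 probe sets changed downward, by -0.13 to -0.50, and 3 of them passed in the fit over all probe sets. TRIM22 fell out of the tested genes when a gene's probe sets were averaged and when the filter was raised to the 60th percentile.

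TRIM5, the restriction factor that binds retroviral capsids, had 7.28, 7.38 and 7.32 with EPC-Exos and 7.25, 7.20 and 7.09 with PBS. The EPC-Exos arrays were higher by a narrow margin, and the gene did not pass (0.15 ± 0.082, 95% interval -0.026 to 0.32, limma adjusted p = 0.153). TRIM21, the cytosolic receptor for antibody-coated virus, had 7.22, 7.18 and 7.11 with EPC-Exos and 6.91, 7.13 and 6.89 with PBS. Its groups overlapped through PBS replicate 2. TRIM21 did not pass (0.19 ± 0.090, limma adjusted p = 0.0936), and it did pass without that array (adjusted p = 0.031). TRIM38, a brake on innate immune signalling, had 8.55, 8.64 and 8.60 with EPC-Exos and 8.60, 8.80 and 8.76 with PBS. It did not pass either (-0.12 ± 0.071, limma adjusted p = 0.167), and without PBS replicate 1 it passed as lower (adjusted p = 0.0359).

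The core members TRIM34 and TRIM69 lay below the signal filter. TRIM34, a capsid-binding relative of TRIM5, averaged 4.01 ± 0.21 with EPC-Exos and 3.78 ± 0.20 with PBS (SD, n = 3), both below the Tag control level. TRIM69 averaged 5.01 ± 0.11 with EPC-Exos and 4.93 ± 0.044 with PBS, near that level. Neither passed in the limma fit without the filter (adjusted p = 0.206 for TRIM34 and 0.649 for TRIM69).

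The wide-list members moved little. TRIM6, which makes free ubiquitin chains that activate an interferon-inducing kinase, changed by 0.059 ± 0.12. TRIM26, reported to act on the transcription factor IRF3, changed by -0.077 ± 0.073, and TRIM35 by -0.12 ± 0.094. TRIM56, an antiviral ligase that acts on the STING pathway, changed by -0.12 ± 0.071. None of the 4 passed in limma (adjusted p = 0.16 to 0.705), though TRIM56 passed as lower without PBS replicate 1 (adjusted p = 0.0399). TRIM31, a ligase of MAVS, averaged 3.62 ± 0.034 with EPC-Exos and 3.71 ± 0.067 with PBS, below the Tag control level.

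**Figure D2:**
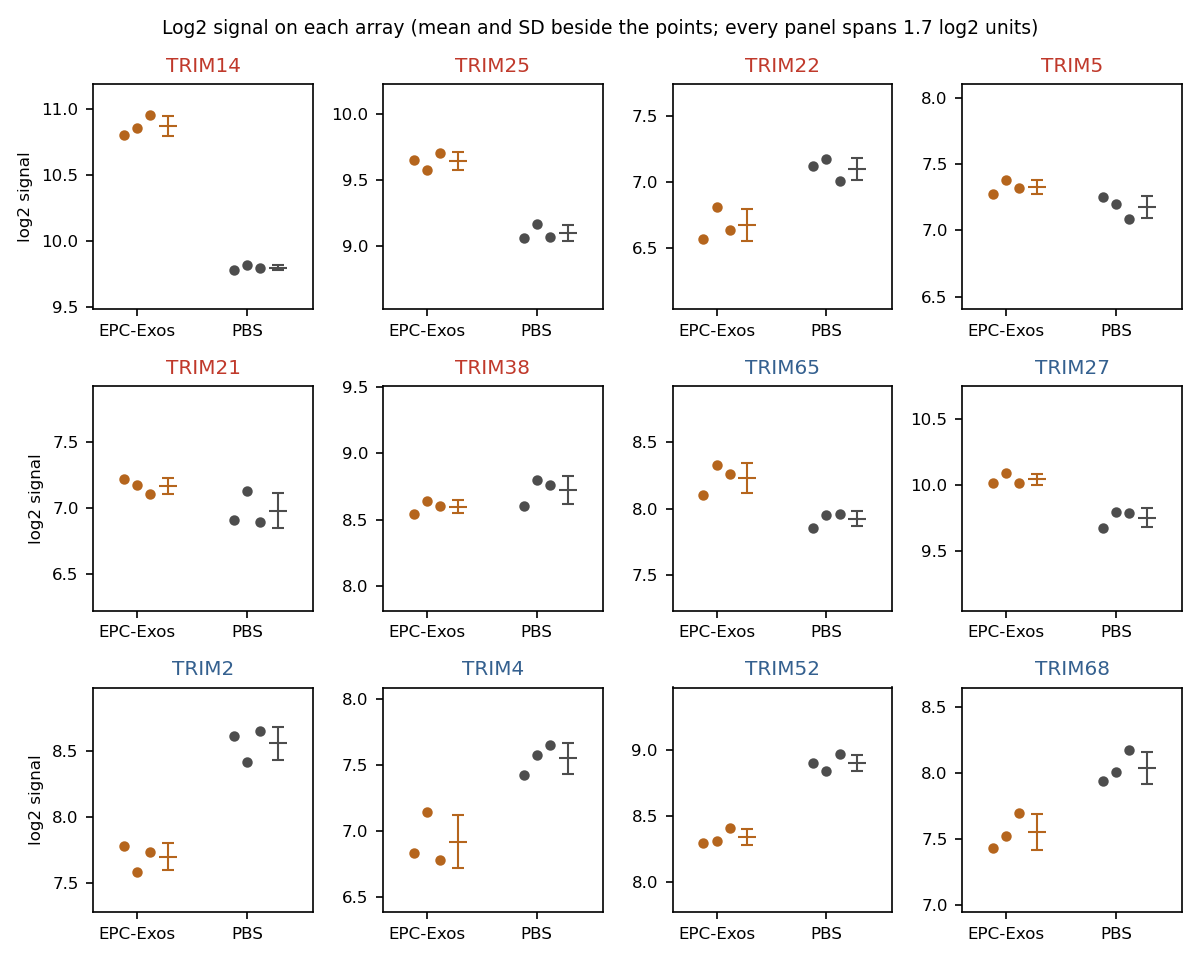
Log2 signal of 12 TRIM genes on each array, EPC-Exos left and PBS right in every panel, with the mean and SD beside the points (n = 3 each); red titles mark the core interferon list. The groups are apart for TRIM14, TRIM25, TRIM22, TRIM65, TRIM27, TRIM2, TRIM4, TRIM52 and TRIM68, and lie close together for TRIM5, TRIM21 and TRIM38.

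TRIM5, TRIM6, TRIM34 and TRIM22 neighbour each other on chromosome 11 in the RefSeq annotation, where the readthrough gene TRIM6-TRIM34 is listed as well. Of these neighbours only TRIM22 was called. Probe sets annotated to both TRIM34 and the readthrough gene fell outside the selection.

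Interferon-induced genes commonly carry the interferon-stimulated response element, a paired GAAA repeat bound by the factor ISGF3. The pattern GAAANNGAAA was searched on both strands, from 250 bases before to 50 bases after each RefSeq start site (GRCh38.p14), for the 46 TRIM genes with an entry. It was found in 5 of 7 core genes (71.4%), in 3 of the 39 other TRIM genes (7.69%), and in 4.38% of all 27305 genes. TRIM22 has no entry in the table. Matches lay in TRIM14, TRIM5, TRIM34, TRIM69 and TRIM21, where the 2 overlapping matches follow the start site, and none lay in TRIM25 or TRIM38. Outside the core they lay in TRIM26, TRIM2 and TRIM44. Among tested TRIM genes with an entry, 1 of 5 that rose, 2 of 7 that fell and 3 of 16 not called held the pattern. So the gene that rose most and genes that did not pass both carry it. The following are the 120 bases before the start site of 4 core genes, 5′ to 3′ on the gene's strand, with the pattern in capitals as it reads on that strand (TRIM14 and TRIM5 carry it on the opposite one). They are shown because TRIM14 and TRIM25 rose while TRIM5 and TRIM38 did not pass.
TRIM14 (chr9:98119223-98119342, minus strand): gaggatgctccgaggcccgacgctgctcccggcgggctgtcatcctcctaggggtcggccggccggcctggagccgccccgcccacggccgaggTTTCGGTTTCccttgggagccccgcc
TRIM25 (chr17:56914050-56914169, minus strand): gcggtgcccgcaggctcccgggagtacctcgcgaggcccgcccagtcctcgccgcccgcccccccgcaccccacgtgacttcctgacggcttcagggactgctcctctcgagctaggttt
TRIM5 (chr11:5685075-5685194, minus strand): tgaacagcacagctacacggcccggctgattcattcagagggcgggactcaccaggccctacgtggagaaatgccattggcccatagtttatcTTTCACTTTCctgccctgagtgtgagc
TRIM38 (chr6:25962682-25962801, plus strand): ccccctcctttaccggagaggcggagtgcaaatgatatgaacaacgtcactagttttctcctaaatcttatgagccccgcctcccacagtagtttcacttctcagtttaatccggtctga
The match in TRIM14 spans bases -26 to -17 from the start site and that in TRIM5 bases -27 to -18, nearly the same place. A match describes the letters only and is no evidence of binding.

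Among members that ubiquitinate RIG-I-like sensors, TRIM65 and TRIM4 moved in opposite directions. TRIM65, a ligase of the sensor MDA5, had 8.10, 8.33 and 8.26 with EPC-Exos and 7.86, 7.95 and 7.96 with PBS. The groups did not overlap, and the rise was 1.24-fold (0.31 ± 0.078, limma adjusted p = 0.00333). TRIM65 has only 1 probe set, of the kind that can bind related transcripts, so it was not tested when such sets were left out. TRIM4, a further ligase reported for RIG-I, had 6.83, 7.15 and 6.78 with EPC-Exos and 7.43, 7.57 and 7.65 with PBS. All EPC-Exos arrays were lower, a 1.55-fold fall (-0.63 ± 0.10, limma adjusted p = 7.23e-05). All 6 TRIM4 probe sets changed downward, by -0.065 to -0.63, and 3 passed. Their average changed by -0.33 ± 0.075 (adjusted p = 0.00174).

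The largest fall of the family was in TRIM2, an NHL-repeat ligase known for controlling neurofilament protein in neurons. TRIM2 had 7.78, 7.59 and 7.74 with EPC-Exos and 8.61, 8.42 and 8.65 with PBS. The groups were well apart, with a 1.81-fold fall (-0.86 ± 0.082, limma adjusted p = 2.33e-07). All 3 of its probe sets fell, by -0.78 to -0.86. Among the other NHL-repeat members, TRIM32, a ligase mutated in a form of limb-girdle muscular dystrophy, fell by a small amount (-0.19 ± 0.060, limma adjusted p = 0.0164). That call was lost without EPC-Exos replicate 1 (adjusted p = 0.124) and when probe sets were averaged (adjusted p = 0.103). TRIM3 changed by 0.11 ± 0.12 and did not pass, and TRIM71 lay below the signal filter.

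TRIM52, a short member with an unusually acidic RING finger, had 8.30, 8.31 and 8.41 with EPC-Exos and 8.90, 8.84 and 8.96 with PBS, a 1.48-fold fall (-0.56 ± 0.068, limma adjusted p = 3.60e-06). Both of its probe sets fell. TRIM68, a ligase reported to act on the androgen receptor, had 7.44, 7.52 and 7.70 with EPC-Exos and 7.94, 8.01 and 8.18 with PBS. This was a 1.40-fold fall (-0.49 ± 0.088, limma adjusted p = 0.000212), and its other probe set past the filter changed by 0.0042 ± 0.11. The average of its probe sets changed by -0.23 ± 0.081 (adjusted p = 0.0302). TRIM41, a ligase reported for protein kinase C, had 8.98, 9.01 and 9.02 with EPC-Exos and 9.39, 9.40 and 9.38 with PBS. It fell 1.31-fold (-0.39 ± 0.058, limma adjusted p = 3.64e-05), as did its second bright probe set (-0.44 ± 0.066), while its pair of dim ones changed by 0.068 ± 0.14 and 0.047 ± 0.12 and did not pass. Averaging the 4 ended the TRIM41 call (adjusted p = 0.0525). In TRIM52, TRIM68 and TRIM41 no EPC-Exos array reached the PBS range.

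TRIM27, a nuclear ligase first known as the RET finger protein, had 10.02, 10.09 and 10.01 with EPC-Exos and 9.67, 9.80 and 9.79 with PBS. It rose 1.22-fold (0.29 ± 0.057, limma adjusted p = 0.000463), and all 3 of its probe sets passed upward. TRIM47 (0.25 ± 0.084, limma adjusted p = 0.0198) and the muscle ligase gene TRIM63 (0.25 ± 0.098, adjusted p = 0.0471) also rose, by under 1.2-fold. The TRIM47 call was lost without EPC-Exos replicate 1 or PBS replicate 2 (adjusted p = 0.0732 and 0.056). The TRIM63 call was lost without EPC-Exos replicate 2 or 3 or PBS replicate 1 or 3 (adjusted p = 0.149, 0.117, 0.0639 and 0.185) and without the signal filter (adjusted p = 0.0736). TRIM44, another member without a RING finger, fell by -0.20 ± 0.053 (limma adjusted p = 0.00556), though its other probe sets changed by 0.055 ± 0.062 and -0.12 ± 0.11, and averaging them ended the call (adjusted p = 0.256). TRIM32, TRIM44, TRIM47 and TRIM63 are outside the naming rule and were chosen once their values were known.

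The chromatin regulators of the family, which read histones through a PHD finger and a bromodomain, changed little. TRIM33, which acts on SMAD signalling, had 9.65, 9.63 and 9.73 with EPC-Exos and 9.85, 9.78 and 9.91 with PBS. It fell 1.13-fold (-0.18 ± 0.058, limma adjusted p = 0.0169). That call, on the brightest probe set, was lost without EPC-Exos replicate 1 or 2 or PBS replicate 3 (adjusted p = 0.0683, 0.069 and 0.0632). In the fit over all probe sets, the next brightest TRIM33 probe set fell by more (-0.32 ± 0.066, limma adjusted p = 0.000971). The dimmest one changed by -0.050 ± 0.083 and did not pass. TRIM24, a ligase of p53, changed by -0.15 ± 0.078 and did not pass (limma adjusted p = 0.115), whereas it passed as lower with averaged probe sets (adjusted p = 0.0278) or without _x_at and _s_at sets (adjusted p = 0.0373). TRIM28, the corepressor that silences retroelements with zinc finger proteins, had 9.84 on every EPC-Exos array and 9.72, 9.91 and 9.95 with PBS. Its change was -0.019 ± 0.063, with a 95% interval of -0.15 to 0.11.

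By domain class, the PRY-SPRY members with a RING finger were most of those tested. Their calls were even in direction, with 4 of 20 higher, 4 lower and 12 not called. Members without a RING finger were kept as a class of their own, whatever their C-terminal domain. That class had 1 of 2 tested members higher (TRIM14) and 1 lower (TRIM44), so the even split leaves out TRIM14, the largest rise. NHL-repeat members fell in 2 of 3, PHD-bromodomain members in 1 of 3, and members with no further domain in 1 of 3, against 27.3% of all genes. These classes are too small to read a direction from, and the calls of TRIM32 and TRIM33, each on its brightest probe set, were lost on leaving out 1 array. Of the 4 tested members with other C-terminal domains (TRIM13, TRIM37, TRIM45 and TRIM59), 0 were called in limma, and TRIM37 was at an unadjusted p under 0.05 (-0.14 ± 0.061, adjusted p = 0.0666).

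**Figure D3:**
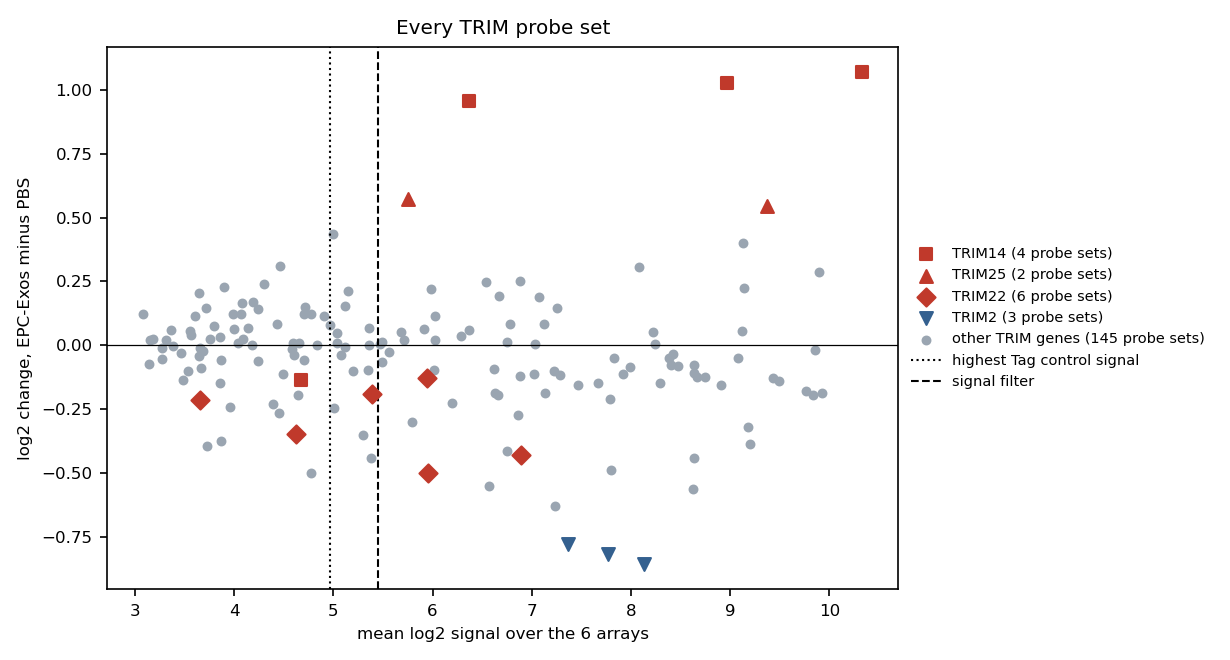
Log2 change of all 160 TRIM probe sets, EPC-Exos minus PBS, against their mean log2 signal over the 6 arrays, with vertical lines at the highest Tag control signal (4.97) and the signal filter (5.45). The probe sets of TRIM14 above background lie between 0.96 and 1.07, those of TRIM2 between -0.86 and -0.78, and all 6 of TRIM22 lie below 0.

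In the limma fit over every probe set, 33 of 160 TRIM probe sets passed (20.6%), against 28.4% of all probe sets. Of these, 11 were higher (6.88%, against 13.6%) and 22 were lower (13.8%, against 14.8%). In 0 of the 45 TRIM genes with several probe sets were some called higher and some lower. That could occur only where at least 2 probe sets of a gene were called, and most of the 45 had fewer. In 5 of the 24 genes with several probe sets past the filter, all of those passed the same way. Neither share was worked out over all genes. The 22 TRIM genes below the filter gave 0 calls in the limma fit without it, against 6.97% of all genes below the filter. At an unadjusted p under 0.05 there was 1, TRIM66, which had 4.88 ± 0.10 with EPC-Exos and 5.13 ± 0.037 with PBS. In 17 of the 22, both group means lay at or below the Tag control level, the range of probes with no target, which limits what they can show. TRIM29 was among these, and 2 of its 6 probe sets passed as lower.

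**Figure D4:**
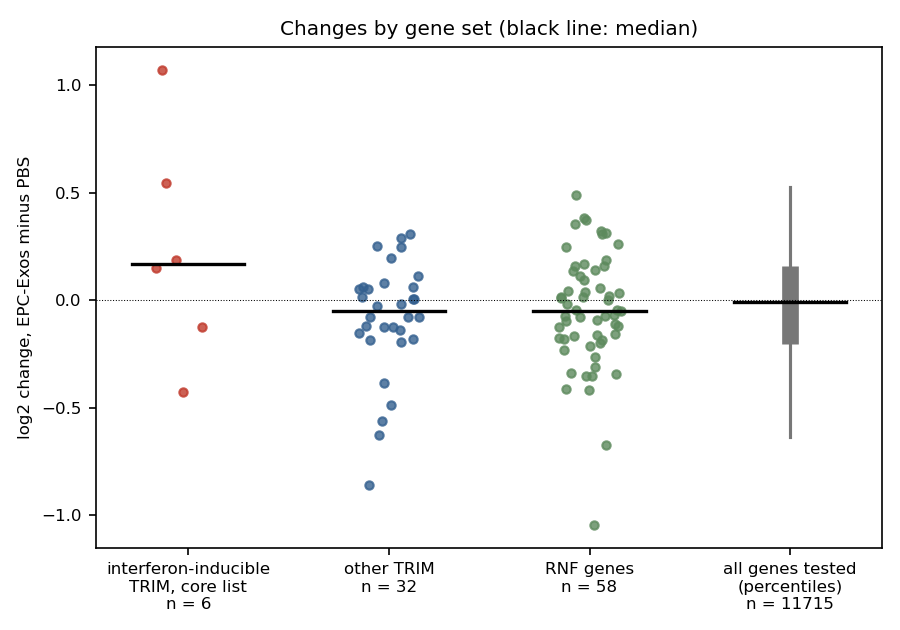
Log2 changes, EPC-Exos minus PBS, of the 6 tested core interferon TRIM genes, the 32 other tested TRIM genes, 58 tested RNF genes and all 11715 tested genes; points are genes, the grey bar spans the 25th to 75th and the thin line the 5th to 95th percentile, and black lines are medians. The medians are 0.17, -0.052, -0.048 and -0.011.

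RNF genes, a larger set of RING finger ligases outside the TRIM family, served for comparison. Of 58 tested RNF genes, 11 rose and 16 fell (46.6% called), with a median log2 change of -0.048. The other TRIM genes had a median of -0.052 and 12 of 32 called (37.5%). Both medians lay near that of all genes (-0.011), of which 49.1% were called. Higher calls made up 19% of the RNF genes and 12.5% of the other TRIM genes, against 21.7% of all genes. Lower calls made up 27.6% and 25%, against 27.3%.

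TRIM proteins that carry other symbols did not pass. PML, the organiser of nuclear bodies and itself interferon-inducible, had a change of -0.12 ± 0.096 (limma adjusted p = 0.322), and it passed as lower without EPC-Exos replicate 2 (adjusted p = 0.046). MID1, a ligase on microtubules, changed by -0.093 ± 0.087, and it passed as lower with averaged probe sets (adjusted p = 0.0248) or without _x_at and _s_at sets (adjusted p = 0.0138). Its relative MID2 changed by 0.19 ± 0.079 (adjusted p = 0.0614) and passed under quantile, cyclic loess or median scaling (adjusted p = 0.0261, 0.0328 and 0.0243). MEFV, the pyrin gene, lay below the signal filter.

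The pathway in which the antiviral members act was described through 18 tested genes of interferon signalling and ISG15 conjugation. Of these, 7 rose (38.9%, against 21.7% of all genes), 4 fell (22.2%, against 27.3%) and 7 did not pass. Their median log2 change was 0.10. The largest changes were rises in ISG15, a ubiquitin-like modifier that TRIM25 can attach (1.22 ± 0.045), IRF9, the DNA-binding part of ISGF3 (2.30-fold, SE 0.067 on the log2 scale), and the sensors IFIH1, which encodes MDA5 (1.04 ± 0.093), and RIGI (0.97 ± 0.073). Their limma adjusted p lay between 2.01e-12 for ISG15 and 1.01e-07 for IFIH1. The adaptor MAVS, on which TRIM14 acts, fell (-0.49 ± 0.071, adjusted p = 2.19e-05), as did STING1, a target of TRIM56 (-0.64 ± 0.085, adjusted p = 1.06e-05); both were named after their values were seen. RIGI and IFIH1 thus rose, as did TRIM25 and TRIM65, while TRIM4, also reported as a RIG-I ligase, fell.

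Of 12 listed ubiquitin-conjugating enzymes, a class that works together with RING ligases, 8 were analysed here. Of these, 5 rose (62.5%, against 21.7% of all genes) and 1 fell (12.5%, against 27.3%), with a median log2 change of 0.21. All 6 called changes were small. The largest was in UBE2K, which had 10.35 ± 0.076 with EPC-Exos and 9.98 ± 0.056 with PBS (SD, n = 3), a rise of 0.38 ± 0.056 (limma adjusted p = 3.38e-05). UBE2N, which builds ubiquitin chains used in innate signalling, rose by 0.21 ± 0.057 (adjusted p = 0.00534), and UBE2E3 fell by 0.20 on the log2 scale (adjusted p = 0.000913). These enzymes were named after their values were seen.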

How the data were processed

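The authors deposited 1 value for each probe set on each array, read as log2 from the range of 2.47 to 14.52. The only tool given, per the submitters' processing notes, is MAS5, with no step attached to it; how background and scaling were handled is not given in the sources used here. The deposited scaling was kept. Gene symbols came from the platform annotation, and the RefSeq gene table (GRCh38.p14) held the gene ID of 44961 of 44988 with 1 symbol. Another 15 TRIM probe sets carried several symbols and were left out. Each gene was taken at its brightest probe set, with a filter at the 40th percentile of mean signal.

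Groups, from the sample titles, were compared two-sided in limma 3.58.1 (R 4.3.3), using lmFit and eBayes with a variance trend and group as the only term, adjusted over all genes tested. Changes are EPC-Exos minus PBS; errors of changes are moderated SE, and n is 3 arrays per group, which limits the precision. The fit was tested on simulated data. Members, lists and alternatives were chosen with earlier results of these data known. Named genes are the wide interferon list, other members called at 1.2-fold or more, TRIM24, TRIM28, TRIM33, TRIM proteins under other symbols and the 4 largest called pathway changes. Promoter sequences are RefSeq's; protein sequences were not used here. The labels give no batch, so a batch that followed the treatment could not be told apart from it.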

Additional observations from a re-analysis of the deposited data

How the results depend on the processing

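Over the 31 named genes, 605 gene and setting pairs were run, of which 555 kept the side of the threshold, 38 lost the call, 12 gained one and 0 called changes reversed. In 7 pairs the sign turned, in TRIM6, TRIM28, TRIM35, PML and MID1, which were not called in either. With the filter at the 60th percentile, 0 interferon-inducible TRIM genes fell, 2 other members rose, and the medians were 0.35 (core) and -0.13 (others), since fewer genes were tested. When probe sets of a gene were averaged, 0 core members fell, as TRIM22 was then below the filter. Without _x_at and _s_at probe sets, 3 members rose (1 core, 2 other) and the core median was -0.12. Adding 64 to the linear signal before the log gave a core median of 0.12, and the wide list gave -0.0089. Tested against a fold of 1.2 rather than no change, 2 members rose and 3 fell (0 core lower, 0 other higher, 3 other lower). At a fold of 1.5 with an unadjusted p under 0.05, 1 rose (1 core, 0 other) and 2 fell (0 core, 2 other). Leaving out 1 array, members higher ranged from 5 to 6 and members lower from 7 to 12, so the count of falls depended on single arrays. Members lower outside the core ranged from 6 to 10. Core members lower ranged from 1 to 2 (2 without PBS replicate 1), and the core median from 0.12 to 0.21. With the replicate number as a block, 6 members rose and 9 fell, the same counts. Deviations of same-numbered arrays correlated at 0.201, 0.185 and 0.077, and each array correlated best with its own number, a hint from the data and not from the design. Signal near the Tag controls limits what the 22 members below the filter can show.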

Other observations

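In some TRIM genes that were not called, one probe set passed while the brightest did not. These genes were named after their values were seen. TRIM13, a ligase of the endoplasmic reticulum membrane, had 8.25 ± 0.16 with EPC-Exos and 8.24 ± 0.076 with PBS on its brightest probe set (SD, n = 3). Another of its 5 probe sets had 6.30 ± 0.022 with EPC-Exos and 6.85 ± 0.022 with PBS, a change of -0.55 ± 0.094 (limma adjusted p = 0.000155 over all probe sets). TRIM45 changed by 0.0032 ± 0.11 on its brightest probe set and by -0.27 ± 0.091 on the next (adjusted p = 0.0313). TRIM35, of the wide interferon list, rose on the dimmest of its 4 probe sets (0.43 ± 0.11, adjusted p = 0.00709), where the mean with PBS, 4.78, lay below the Tag control level. TRIM29 fell on 2 of its 6 probe sets, all of which lay below that level. Whether these probe sets measure different transcripts of a gene was not tested.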
